A study of Homo sapiens with 30 samples.

Results

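The inhibitors of DNA binding and the HES and HEY repressors were followed through SH-EP neuroblastoma (NB) cells with and without MYCN. The group consists of the 4 ID genes (ID1, ID2, ID3, and ID4) and 4 genes of the hairy and enhancer-of-split type (HES1, HES4, HEY1, and HEY2). These 8 genes were picked by symbol, with earlier results of these data known, out of 26228 genes in a table of FPKM. FPKM are fragments scaled to transcript length and to the mapped reads of a library. SH-EP is an established human NB line of mesenchymal identity without MYCN amplification. The other 4 lines are SH-EP cells made stable with a retroviral MYCN transgene under an exogenous promoter, either WT or with alanine at T58, at S62, or at both sites (T58A, S62A, and the double mutant T58A S62A). Each of the 5 lines received DMSO or CYC065, a CDK2 and CDK9 inhibitor, at 1 μM over 6 hours, and every line and treatment has 3 RNA-Seq libraries, 30 in total. Each genotype is represented by 1 line, and the sources used here do not say whether a line is a clone or a pool. Nothing in the labels says that the libraries of a group came from separate cultures, so p values measure the spread between these libraries, which may be technical.

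ID proteins have a helix-loop-helix domain but no basic region. They pair with E proteins such as TCF3, TCF4, and TCF12 and keep them, and the lineage factors that need them, off DNA, and ID genes are classical targets of BMP and SMAD signaling. HES and HEY proteins do bind DNA and recruit corepressors, in the case of HES proteins those of the TLE family, and their genes are the classical targets of Notch acting through RBPJ. Both families hold progenitor cells of the nervous system and neural crest in an undifferentiated state. T58 and S62 are phosphorylation sites that control the turnover of the MYCN protein.

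The labels were checked on MYCN, which was listed at 0 FPKM in all 6 SH-EP libraries and lay between 5.08 and 20.1 FPKM in the libraries of the MYCN lines. The 8 mesenchymal markers (PRRX1, SNAI2, FN1, VIM, YAP1, WWTR1, TWIST1, and CD44) were detected in every library. The adrenergic markers were mixed. GATA3 was detected in every library (1.89 to 9.46 FPKM), ISL1 was at 0 in 1 library and reached 2.01 FPKM, and TH was at 0 in 5 and reached 0.969 FPKM, whereas PHOX2A was at 0 in all 30, DBH and HAND1 in 29 each, and CHGA in 28. HAND2, counted here with the helix-loop-helix factors, is also an adrenergic factor and lay at 23.1 to 89.3 FPKM. On FPKM as deposited, 5 of the 8 mesenchymal markers were lower than in SH-EP in WT, T58A, and T58A S62A, and 6 in S62A. In WT, T58A, and T58A S62A 1 was higher, and in S62A 0 were. Of all tested genes, 22.6% to 24.1% were lower and 30.9% to 31.6% higher in these lines. GATA3, the 1 tested gene of the adrenergic marker list, was lower in T58A (log2 change -1.18) and T58A S62A (-0.79). It was not past the threshold in WT or S62A. The part of these markers in the line differences below was not tested. Of markers of blood, epithelial, endothelial, and liver cells (PTPRC, CD3E, EPCAM, PECAM1, and ALB), none passed 0.327 FPKM in any library. Low values in the table put the CYC065 libraries at a relative depth of 0.293 to 0.555 and the DMSO libraries at 0.473 to 1, where 1 is the deepest. Low genes are thus measured less precisely with CYC065, and the total number of reads is unknown. The index sequences of the SH-EP libraries recur among the MYCN-line libraries, and the labels name no sequencing pool. If the libraries were sequenced in separate pools, line and pool cannot be told apart. In bulk RNA, fewer cells with a transcript and less of it in each cell cannot be told apart. The spike-ins described below are meant to follow the mean amount of RNA per cell.

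All are protein-coding genes. On GRCh37, ID1 lies on chromosome 20 (30193086 to 30194318), ID2 on chromosome 2 (8818975 to 8824591), ID3 on chromosome 1 (23884417 to 23885992, minus strand), and ID4 on chromosome 6 (19837601 to 19842428). HES1 lies on chromosome 3 (193853937 to 193856521), HES4 on chromosome 1 (934342 to 935552, minus strand), and HEY2 on chromosome 6 (126068810 to 126082415). ID2, ID4, and HEY2 overlap a long noncoding RNA on the opposite strand (ID2-AS1, LNC-LBCS, and HEY2-AS1). Values were computed by the authors with a strand-specific setting, and ID2-AS1 stayed at or below 2.40 FPKM in every library.

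The promoters of HES1, HES4, ID1, and ID4 are shown, because HES1 and ID4 differed between lines in their response to CYC065, HES4 stood apart in 1 line, and ID1 serves as the reference for ratios. The sequences are the 250 bases upstream of the RefSeq start site on GRCh38.p14, which held entries for 7 of the 8 genes. Capitals mark matches, on either strand, to the core of the RBPJ site (TGGGAA), the CCAAT box (CCAAT), and the TATA box (TATANA, where N is any base). No match to a MYC and MAX E-box (CACGTG) was found in the 7 windows. HES1 is at chr3:194135898-194136147 (plus strand), HES4 at chr1:1000098-1000347 (minus), ID1 at chr20:31605039-31605288 (plus), and ID4 at chr6:19837120-19837369 (plus).
HES1: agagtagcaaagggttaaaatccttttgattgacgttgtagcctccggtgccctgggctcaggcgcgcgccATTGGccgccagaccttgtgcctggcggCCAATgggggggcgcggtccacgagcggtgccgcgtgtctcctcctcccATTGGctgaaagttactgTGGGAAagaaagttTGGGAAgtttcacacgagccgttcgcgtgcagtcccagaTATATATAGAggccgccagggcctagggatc
HES4: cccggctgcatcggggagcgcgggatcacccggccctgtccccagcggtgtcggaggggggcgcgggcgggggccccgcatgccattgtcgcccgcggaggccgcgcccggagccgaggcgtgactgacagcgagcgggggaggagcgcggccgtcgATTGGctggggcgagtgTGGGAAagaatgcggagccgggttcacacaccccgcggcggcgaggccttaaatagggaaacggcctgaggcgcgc
ID1: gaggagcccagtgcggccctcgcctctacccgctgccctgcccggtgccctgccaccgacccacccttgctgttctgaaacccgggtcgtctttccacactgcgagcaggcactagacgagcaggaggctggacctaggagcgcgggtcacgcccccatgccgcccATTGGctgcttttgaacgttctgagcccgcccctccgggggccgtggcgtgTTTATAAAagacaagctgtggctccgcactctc
ID4: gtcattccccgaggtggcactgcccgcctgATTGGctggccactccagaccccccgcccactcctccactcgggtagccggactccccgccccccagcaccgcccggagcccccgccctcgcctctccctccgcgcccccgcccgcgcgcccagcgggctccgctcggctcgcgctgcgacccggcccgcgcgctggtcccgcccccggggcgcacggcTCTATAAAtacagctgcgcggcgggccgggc

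The RBPJ core was found in the 3 HES and HEY windows and in 0 of the 4 ID windows. HES1 has 2 matches, starting 84 and 70 bases upstream of the start site, HES4 has 1 at 76 bases, and HEY2 has 1 at 213 bases on the minus strand, all the others having 0. Of 27305 RefSeq promoters of this length, 21.1% have at least 1 match and 2.92% have 2 or more. The CCAAT box occurs 3 times in HES1 and in ID2, 2 times in HEY2, 1 time in ID1, ID4, and HES4, and 0 times in ID3, against 33.0% of promoters with at least 1 match. The TATA box letters lie within 33 bases of the start site in ID1, ID3, ID4, and HES1, and 18.3% of promoters have them anywhere in the window. The E-box is in 6.49% of promoters. The TATA matches of HES1 overlap each other on both strands, and no CCAAT or TATA match overlaps an RBPJ core. A match describes letters and is not evidence of binding.

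FPKM are per length, so levels can be set side by side between genes. ID1 was the highest of the 8, with a mean of 224 FPKM over the 30 libraries, followed by ID3 (113), ID2 (70.3), HES1 (31.5), ID4 (7.29), and HES4 (1.87). These 6 passed the filter for testing, a mean FPKM of 1 or more, as did 11575 genes in total. HEY1 (0.604) and HEY2 (0.191) did not and are given by their levels, without a test. HEY2 was at 0 in 11 libraries, and HEY1 and HES4 in 1 each. A 0 in a table without counts can be a failed estimate.

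**Figure D1:**
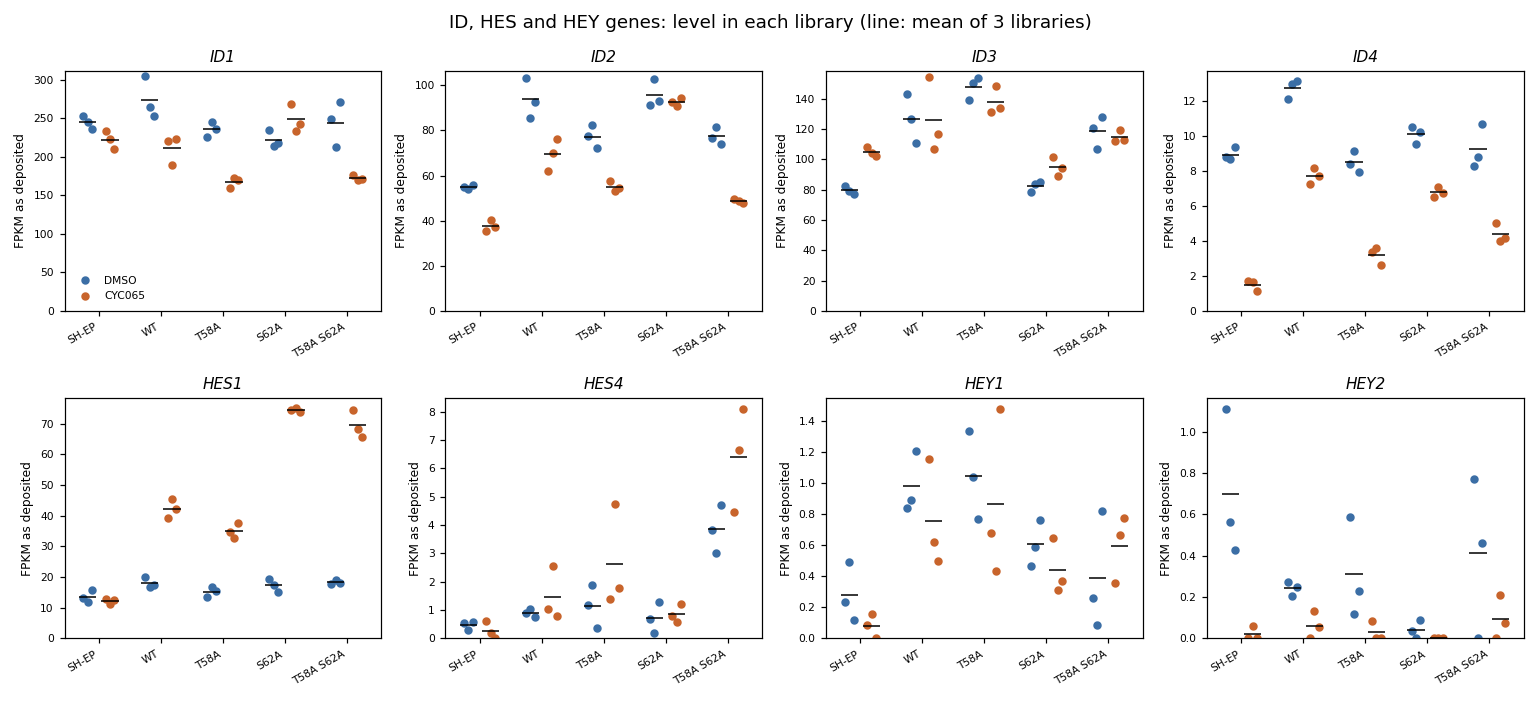
Level of each of the 8 genes in FPKM as deposited (vertical axes, linear from 0, each gene on its own scale) in the 5 lines (horizontal axes) with DMSO (blue) and CYC065 (orange). Points are libraries and black lines are means of 3 libraries. HES1 with CYC065 lies at 32.6 to 75.2 FPKM in the MYCN lines and 11.3 to 12.6 FPKM in SH-EP, and ID4 is lowest in SH-EP with CYC065.

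The first comparison asked how these repressors differed between parental SH-EP and the lines carrying MYCN when both had received DMSO, on FPKM as deposited. No label names SH-EP cells with an empty vector. Effects of MYCN and of making a stable line therefore cannot be told apart. ID2 was higher in each MYCN line than in SH-EP, and ID3 and HES1 were higher in 3 of the 4 lines. ID4 was higher in the WT line, and HES4 in the T58A S62A line. ID1, the most abundant member, was not past the threshold in any line, and no member was lower in any line by limma (0 at an unadjusted p under 0.05). The 4 comparisons share the same 3 SH-EP libraries.

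ID2, which restrains E proteins and can also bind RB family proteins, was at 54.9, 54.2, and 56.0 FPKM in SH-EP. It was at 103, 85.7, and 92.6 FPKM in the WT line, 77.6, 82.2, and 72.2 for T58A, 91.4, 103, and 93.2 for S62A, and 76.8, 81.6, and 73.8 in T58A S62A. Every MYCN library lay above every SH-EP library. The log2 changes of ID2, in the order WT, T58A, S62A, and the double mutant, were 0.76, 0.49, 0.80, and 0.49 (standard error 0.07 each), with adjusted p = 2.32e-09, 2.52e-06, 1.1e-09, and 2.2e-06 by limma.

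ID3 rose from 76.9 to 82.2 FPKM in SH-EP to 111 to 143 for WT, 139 to 154 for T58A, and 107 to 128 in T58A S62A, and it stayed at 78.6 to 85.0 for S62A. The S62A range overlapped that of SH-EP and the other 3 did not. Log2 changes of ID3 were 0.67 for WT (adjusted p = 3.95e-06), 0.89 for T58A (adjusted p = 4.98e-08), and 0.57 for T58A S62A (adjusted p = 2.78e-05), against 0.05 in S62A (95% interval -0.15 to 0.26, adjusted p = 0.676). ID4, in SH-EP at 8.66 to 9.34 FPKM, was at 12.1 to 13.1 for WT, a log2 change of 0.51 (standard error 0.12, adjusted p = 0.00139). It was at 7.91 to 10.7 FPKM in the 3 mutant lines, where changes ran from -0.07 to 0.17 and did not pass the threshold. ID1 changed by -0.14 to 0.16 over the 4 lines, with adjusted p between 0.104 and 0.932.

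HES1, the Notch effector with the highest level here, was at 13, 11.8, and 15.6 FPKM in SH-EP. It was at 16.7 to 19.8 for WT, 13.5 to 16.8 for T58A, 15.1 to 19.3 for S62A, and 17.8 to 18.9 in T58A S62A. WT and T58A S62A lay above SH-EP in every library, and T58A and S62A overlapped it. Its log2 change was 0.42 for WT (adjusted p = 0.000843), 0.36 for S62A (adjusted p = 0.00347), and 0.44 for T58A S62A (adjusted p = 0.000525), against 0.18 in T58A (95% interval -0.02 to 0.38, adjusted p = 0.13). The S62A call was lost when only the 2 groups were fitted (adjusted p = 0.0665).

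HES4, a relative of HES1, was low with DMSO except in the T58A S62A line. It was at 0.530, 0.294, and 0.556 FPKM in SH-EP and at 3.81, 3.02, and 4.72 FPKM in T58A S62A. The other MYCN lines ranged from 0.180 to 1.87 FPKM, below every T58A S62A library. The log2 change of HES4 in T58A S62A was 2.83 (standard error 0.63, adjusted p = 0.000538), and 101 of the 11575 genes had a larger one. In WT, T58A, and S62A the changes were 0.84, 0.96, and 0.30 with standard errors of 0.63, and did not pass. HEY1, on GRCh37 chromosome 8 (80674606 to 80680092, minus strand), was at 0.115 to 0.490 FPKM in SH-EP, 0.843 to 1.21 for WT, 0.770 to 1.34 for T58A, 0.469 to 0.760 for S62A, and 0.0833 to 0.821 in T58A S62A. HEY2 ran the other way in mean level, with 0.427 to 1.11 FPKM in SH-EP against 0.203 to 0.274 in WT and 0 to 0.0867 for S62A, whereas T58A (0.117 to 0.589) and T58A S62A (0 to 0.771) overlapped SH-EP.

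Higher were 4 of the 6 members for WT, 2 for T58A, 2 for S62A, and 4 for the double mutant, while 31.6%, 30.9%, 31%, and 31.2% of the 11575 tested genes were higher in the same lines. Lower were 0 members, against 22.6%, 23.3%, 23.4%, and 24.1% of genes. The direction rests on the scale. When libraries were scaled to ERCC spike-ins, RNAs added in proportion to cell number, the median change of all tested genes moved from between 0.05 and 0.07 to -1.18 for WT, -0.89 for T58A, -1.88 for S62A, and -0.76 for the double mutant. On that scale the members were lower than in SH-EP in 17 of the 24 tests and higher in 1, HES4 in T58A S62A (log2 change 2.17, adjusted p = 0.00284). Relative to the median of all genes, ID2 was higher by 0.69, 0.44, 0.74, and 0.43 as deposited and by 0.67, 0.42, 0.71, and 0.41 with spike-in scaling.

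**Figure D2:**
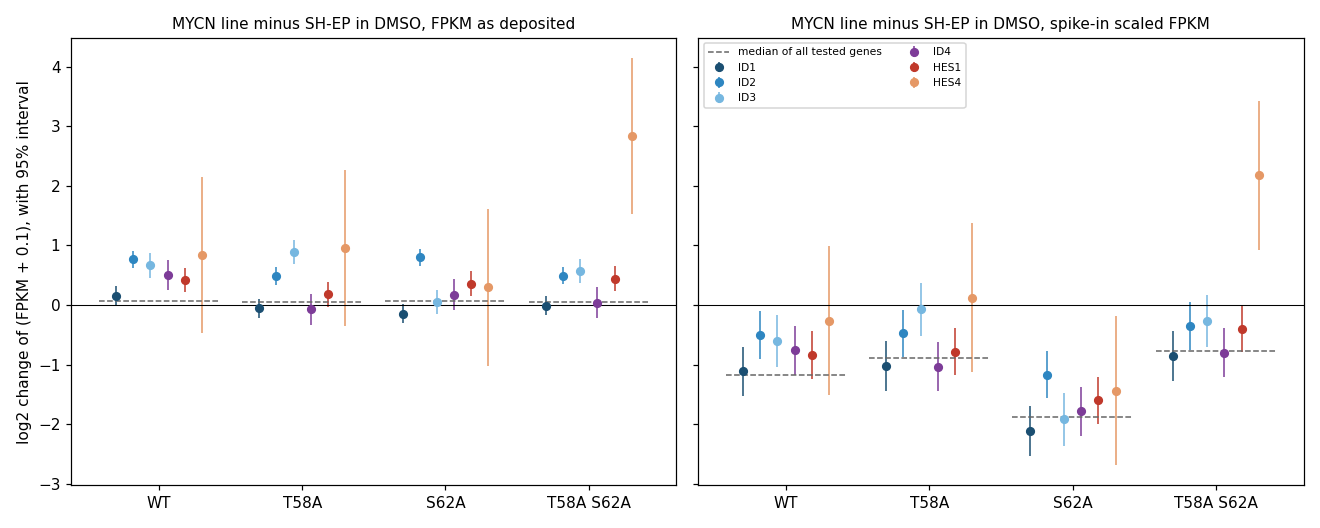
Log2 change of (FPKM + 0.1) between each MYCN line and SH-EP in DMSO for the 6 tested members, with 95% intervals from limma, as deposited (left) and scaled to spike-ins (right). The dashed line is the median of all 11575 tested genes, near 0 as deposited and between -1.88 and -0.76 with scaling, and only HES4 in T58A S62A lies above 0 with its whole interval in both panels.

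Between the MYCN lines in DMSO, as deposited, the mutants differed from WT in single members. T58A had less ID2 (log2 change -0.28, adjusted p = 0.00561) and less ID4 (-0.58, adjusted p = 0.00136). S62A had less ID1 (-0.30, adjusted p = 0.00759) and less ID3 (-0.61, adjusted p = 6.26e-05). T58A S62A had less ID2 (-0.27, adjusted p = 0.0058) and less ID4 (-0.47, adjusted p = 0.00765) and more HES4 (1.99, standard error 0.63, adjusted p = 0.0241). These 3 comparisons share the WT libraries, and the lines compared also differ in the level of MYCN itself, as given above. Lower were thus 2 of 6 members in each line, against 13%, 14%, and 14.2% of all tested genes, and higher were 0, 0, and 1, against 10.7%, 10.1%, and 9.43%. At an unadjusted p under 0.05, 1, 0, and 1 were higher.

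Several of these calls are small and rested on single libraries or on the fit. When only the 2 groups were fitted, 4 of the 6 lower calls were lost, namely ID1 in S62A (adjusted p = 0.0739), ID2 in T58A (adjusted p = 0.0873), and both ID2 and ID4 of the double mutant (adjusted p = 0.0995 and 0.0627), and a lower ID4 in S62A passed (-0.33, adjusted p = 0.0323). With spike-in scaling, ID2 and ID4 did not differ past the threshold in T58A (0.03 and -0.28) or in T58A S62A (0.15 and -0.04), whereas ID3 in S62A (-1.31), ID1 in S62A (-0.998), and HES4 in T58A S62A (2.44) stayed past it, with a median of all genes of 0.28 for T58A, -0.71 for S62A, and 0.40 for the double mutant. Without the WT library with 305 FPKM of ID1, the ID1 call in S62A (adjusted p = 0.0743) and the ID2 call in T58A (adjusted p = 0.0501) were lost. The ID4 call in T58A S62A was lost without the T58A S62A library at 8.25 FPKM of ID4 (adjusted p = 0.0513), and the HES4 call was lost on leaving out any of 4 of the 6 libraries, those of WT at 0.895 and 0.736 FPKM and those of T58A S62A at 3.81 and 4.72 FPKM of HES4 (adjusted p = 0.0538 to 0.0741), with a pseudocount of 0.01 (adjusted p = 0.121), and without the filter (adjusted p = 0.066).

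The second comparison asked what CYC065 did to these genes, on spike-in scaled FPKM, which are meant to follow the amount of RNA per cell. The scaling also varied within groups. Its log2 factors ran from 0.263 to 0.958 in T58A with DMSO and from -0.515 to -0.46 in T58A with CYC065. All 4 ID genes fell in all 5 lines. HES1 fell in SH-EP and, slightly, in WT, did not change past the threshold in T58A, and rose in S62A and T58A S62A. HES4 fell in SH-EP and was not past the threshold in the 4 MYCN lines. A fall was the common outcome, since the median log2 change of all tested genes was -1.08 in SH-EP, -1.58 for WT, -1.09 for T58A, -1.35 for S62A, and -0.98 for the double mutant.

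Among the ID genes, ID4 fell furthest in each line. In scaled FPKM, ID4 in SH-EP went from 28.5, 26.6, and 31.0 with DMSO to 2.39, 2.37, and 1.33 with CYC065. In WT it went from 19.9, 14.6, and 16.7 to 3.37, 2.92, and 3.23, and in T58A from 16.1, 10.9, and 15.4 to 2.43, 2.61, and 1.85. In S62A it went from 8.56, 8.93, and 7.34 to 2.05, 1.83, and 1.99, and in T58A S62A from 16.7, 15.8, and 16.8 to 4.46, 2.79, and 4.04. The treated and untreated ranges did not overlap in any line. The log2 changes of ID4 were -3.80, -2.38, -2.57, -2.02, and -2.12, in the order SH-EP, WT, T58A, S62A, and the double mutant (standard error 0.20 each), with adjusted p from 8.34e-15 in SH-EP to 7.91e-10 for S62A. In SH-EP, 3.72% of all tested genes had a lower value than ID4.

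The other ID genes stayed closer to the median of all genes. ID1 changed by -1.41 in SH-EP, -2.07 for WT, -1.69 for T58A, -1.35 for S62A, and -1.58 for the double mutant. ID2 changed by -1.81, -2.12, -1.69, -1.55, and -1.75 in the same order, and ID3 by -0.86, -1.71, -1.30, -1.30, and -1.13. The least sure of these 15 calls was that of ID3 in SH-EP (adjusted p = 0.000783). Relative to the median of all genes, ID1 lay between -0.60 and 0.01, ID2 between -0.77 and -0.20, and ID3 between -0.21 and 0.21. On FPKM as deposited ID3 was past the threshold only in SH-EP, where it rose (log2 change 0.40, adjusted p = 0.000822), while ID2 fell in 4 lines and not in S62A (-0.05, adjusted p = 0.564).

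HES1 went separate ways in the lines. In scaled FPKM, HES1 in SH-EP went from 42.2, 36.2, and 51.7 with DMSO to 17.99, 16.3, and 14.6 with CYC065, without overlap. In T58A S62A it went the other way, from 35.8, 34.2, and 28.3 to 66.3, 47.6, and 63.7, again without overlap, and in S62A from 15.8, 16.4, and 10.9 to 23.4, 19.4, and 21.8. In WT it went from 32.7, 18.8, and 22.3 to 18.2, 16.3, and 17.7, and in T58A it was at 20.1 to 29.9 before and 23.7 to 26.2 after treatment. Treated libraries thus lay below in SH-EP and WT, within the range in T58A, and above in S62A and T58A S62A.

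The log2 changes of HES1 were -1.40 in SH-EP (adjusted p = 3.34e-07), -0.46 for WT (adjusted p = 0.0273), 0.00 for T58A (95% interval -0.40 to 0.40, adjusted p = 1), 0.60 for S62A (adjusted p = 0.00529), and 0.84 for T58A S62A (adjusted p = 0.00036), with standard errors of 0.19. In the 4 MYCN lines, 95.8%, 96.5%, 98%, and 97.5% of all tested genes had a lower change than HES1, against 38.9% in SH-EP. The call in WT was lost without the DMSO library at 32.7 (-0.24, adjusted p = 0.246) or the CYC065 library at 16.3 scaled FPKM (adjusted p = 0.0764). It was also lost without the filter (adjusted p = 0.0576), with only spike-ins of at least 50 FPKM (adjusted p = 0.0652), and when only the 2 groups were fitted (adjusted p = 0.0796). The call in S62A was lost without the DMSO library at 10.9 scaled FPKM (0.42, adjusted p = 0.0566) and with only spike-ins of at least 50 FPKM (0.30, adjusted p = 0.271).

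**Figure D3:**
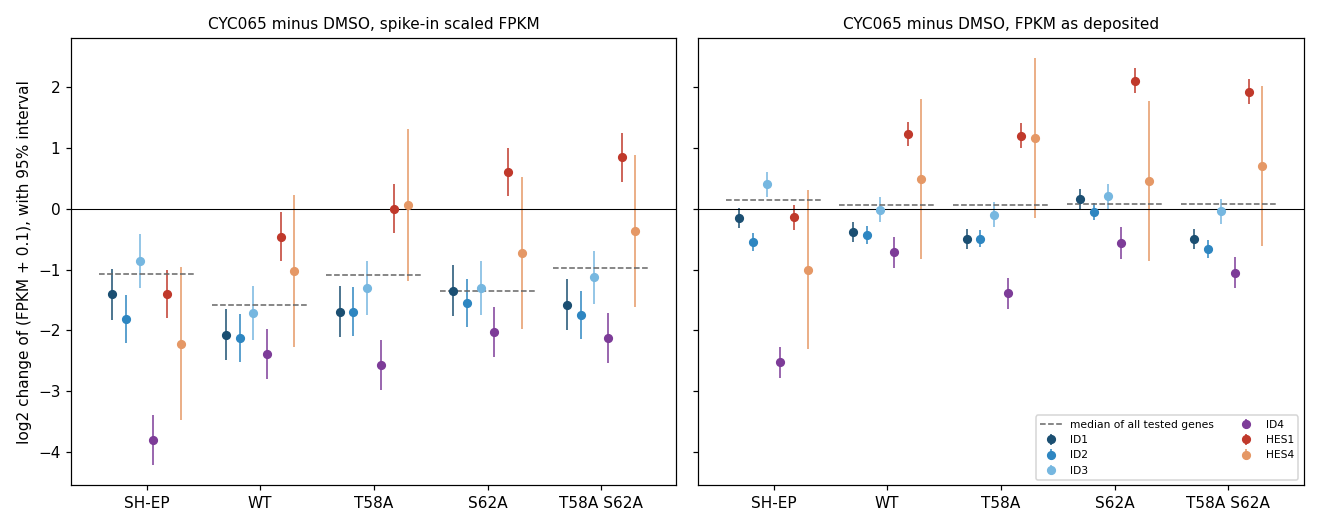
Log2 change of (FPKM + 0.1) with CYC065 against DMSO in each line for the 6 tested members, with 95% intervals from limma, scaled to spike-ins (left) and as deposited (right). The dashed line is the median of all tested genes. HES1 lies below the dashed line in SH-EP and 1.09 to 1.96 above it in the MYCN lines on the scaled values, and ID4 in SH-EP is the lowest point in both panels.

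HES4 went from 0.904 to 1.84 scaled FPKM with DMSO to 0 to 0.868 with CYC065 in SH-EP, a log2 change of -2.22 (standard error 0.61, adjusted p = 0.0019) that was not past the threshold on FPKM as deposited (-1.002, adjusted p = 0.155). In the MYCN lines its changes lay between -1.02 and 0.07, with intervals as wide as -2.27 to 0.23 in WT and -1.18 to 1.32 for T58A. HEY1 in SH-EP was at 0.382 to 1.51 scaled FPKM with DMSO and 0 to 0.221 with CYC065, and HEY2 at 1.42 to 3.60 and 0 to 0.0820. HEY2 was at 0 in 2 of 3 SH-EP libraries, 2 of 3 T58A libraries, and 3 of 3 S62A libraries with CYC065, so no fold is given.

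Called lower were 6 of 6 members in SH-EP, 5 in WT, and 4 each in T58A, S62A, and T58A S62A, and 76.3%, 93.7%, 84.5%, 90.2%, and 76.4% of all tested genes were lower in these lines. A fall is therefore no particular feature of these genes. Called higher by limma were 0, 0, 0, 1, and 1, the same counts as at an unadjusted p under 0.05, and the 1 was HES1 in each case, against 0.89%, 0.769%, 1.24%, 0.959%, and 1.84% of genes. On FPKM as deposited, which give a gene's share of the RNA, HES1 rose in WT, T58A, S62A, and the double mutant by 1.23, 1.20, 2.11, and 1.92 (adjusted p = 1.18e-10, 1.8e-10, 7.6e-15, and 4.61e-14) and not in SH-EP (-0.14, 95% interval -0.34 to 0.07, adjusted p = 0.208). Its treated level was 74.4, 75.2, and 73.6 FPKM in S62A, 74.4, 68.4, and 65.6 in T58A S62A, 39.1, 45.5, and 42.2 for WT, 34.6, 32.6, and 37.4 for T58A, and 12.6, 11.3, and 12.5 in SH-EP. S62A and T58A S62A overlapped each other at the top, and the other 3 groups formed separate steps below them.

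**Figure D4:**
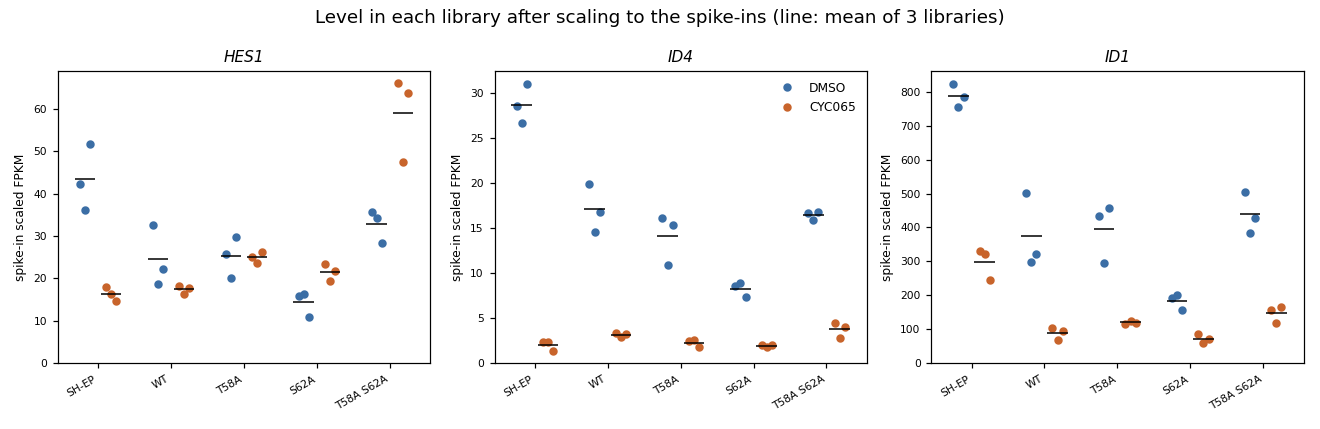
Level of HES1, ID4, and ID1 in spike-in scaled FPKM (vertical axes, linear from 0) in each library of the 5 lines with DMSO (blue) and CYC065 (orange), with the mean of 3 libraries as a black line. HES1 falls below its DMSO libraries in SH-EP and lies above them in S62A and T58A S62A, whereas ID4 and ID1 lie below in every line.

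The third comparison tested the response to CYC065 of each MYCN line against that of SH-EP. For HES1 and ID4 the log2 change lay higher in each MYCN line than in SH-EP, and no other member passed. This is called a higher response here. For ID4 it was a smaller fall, -2.57 to -2.02 against -3.80 in SH-EP. For HES1 it was a smaller fall in WT, no change past the threshold in T58A, and a rise in S62A and T58A S62A. For HES1 the difference in log2 change was 0.94 for WT (adjusted p = 0.037), 1.40 for T58A (adjusted p = 0.00367), 2.002 for S62A (adjusted p = 5.31e-05), and 2.24 for T58A S62A (adjusted p = 6.6e-06). For ID4 it was 1.42 (adjusted p = 0.00615), 1.23 (adjusted p = 0.0134), 1.78 (adjusted p = 0.00024), and 1.68 (adjusted p = 0.000303) in the same order. The standard error was 0.27 for HES1 and 0.28 for ID4. The 4 tests share the 6 SH-EP libraries and are not independent of each other. ID1, ID2, and ID3 had differences from -0.85 (ID3 for WT, adjusted p = 0.0539) to 0.26 (ID2 for S62A, adjusted p = 0.558), and HES4 from 1.20 to 2.28 with standard errors of 0.86.

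In each of the 4 lines, 2 of 6 members had a higher response, against 1.82%, 2.35%, 3.11%, and 5.27% of all tested genes in WT, T58A, S62A, and the double mutant, and 0 had a lower one, against 14.1%, 0.311%, 1.72%, and 0.19%. At an unadjusted p under 0.05, 3 had a higher one in T58A and in T58A S62A, HES4 being added there, and 2 in WT and in S62A. At that threshold 2 had a lower one in WT (ID1 and ID3) and 0 in the other lines. On FPKM as deposited the differences were 1.37, 1.33, 2.25, and 2.06 for HES1 and 1.81, 1.13, 1.96, and 1.47 for ID4, with adjusted p of 5.6e-05 or below in each. On that scale 5 lower responses of ID1 and ID3 passed as well (-0.50 to -0.35), as did a higher one of ID2 in S62A (0.50). The WT call for HES1 on the scaled values was lost on leaving out any of 7 of the 12 libraries (adjusted p = 0.0584 to 0.0862), namely the SH-EP libraries other than the CYC065 library at 14.6 scaled FPKM, and the WT CYC065 libraries at 16.3 and 17.7 scaled FPKM. The T58A call for ID4 was lost without the SH-EP CYC065 library at 1.33 scaled FPKM (0.97, adjusted p = 0.0546). When only the 4 groups compared were fitted, the T58A call for ID4 (adjusted p = 0.183) and the WT call for HES1 (adjusted p = 0.0549) were lost, and the latter was also lost without the filter (adjusted p = 0.0731). With only spike-ins of at least 50 FPKM, the calls for ID4 in WT, T58A, and T58A S62A (1.32 to 1.43, adjusted p = 0.0516 to 0.13) and for HES1 in WT (0.83, adjusted p = 0.153) were lost.

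A ratio of 2 genes within a library does not depend on how libraries are scaled. In DMSO, HES1 was at 0.0478 to 0.0890 of the ID1 level in all lines. With CYC065 this ratio stayed at 0.0507 to 0.0594 in SH-EP, within its DMSO range, and reached 0.177 to 0.241 for WT, 0.189 to 0.220 for T58A, 0.276 to 0.321 for S62A, and 0.382 to 0.420 in T58A S62A. These are changes of 1.00-fold, 3.05-fold, 3.24-fold, 3.87-fold, and 5.36-fold, and the treated range lay above the untreated one in each MYCN line. A ratio also holds the response of ID1. As deposited, ID1 had log2 changes of -0.14 in SH-EP, -0.38 for WT, -0.49 for T58A, 0.16 for S62A, and -0.49 for T58A S62A. HES1 alone, as deposited, rose more in S62A (4.31-fold) than in T58A S62A (3.80-fold). The ratio of ID4 to ID1 fell to 0.182-fold in SH-EP, and to 0.526-fold in T58A, 0.603-fold in S62A, and 0.672-fold in T58A S62A, without overlap, whereas in WT (0.785-fold) treated and untreated libraries overlapped. The ratio of ID2 to ID1 overlapped between treatments in every MYCN line and fell to 0.758-fold in SH-EP. The ratio of ID3 to ID1 rose by 1.28-fold to 1.46-fold, without overlap, in 4 lines and not in S62A (1.03-fold).

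**Figure D5:**
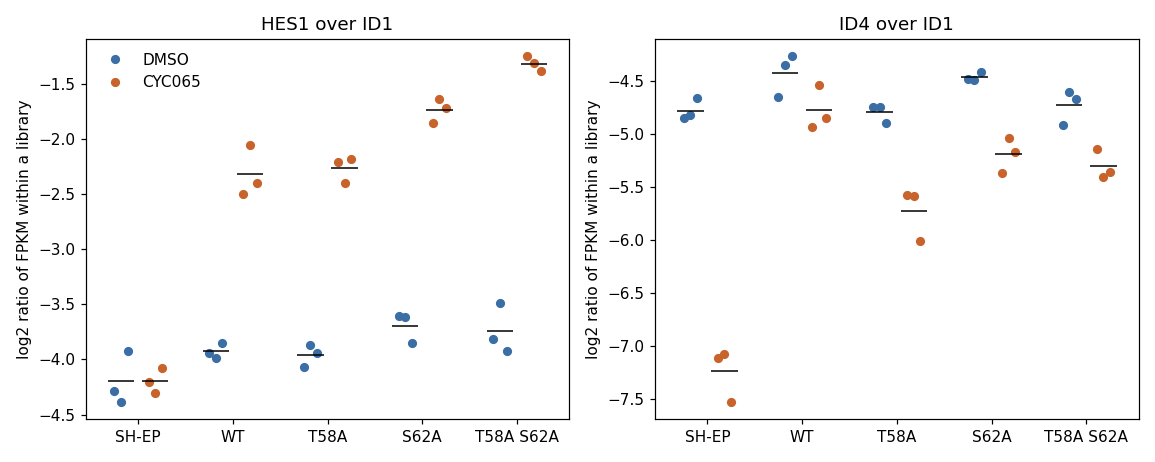
Log2 ratio of HES1 to ID1 (left) and of ID4 to ID1 (right) within each library, for 5 lines with DMSO (blue) and CYC065 (orange), with the mean of 3 libraries as a black line. HES1 over ID1 does not move in SH-EP (1.00-fold) and moves up by 3.05-fold to 5.36-fold in the MYCN lines, and ID4 over ID1 falls most in SH-EP (0.182-fold).

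Together the 4 ID genes summed to 389 ± 10.2 FPKM in SH-EP, 507 ± 49.2 for WT, 469 ± 18 for T58A, 411 ± 4.63 for S62A, and 449.8 ± 37.3 for the double mutant with DMSO (mean ± SD, n = 3 each). ID1 made up 63.1% of that sum in SH-EP and 50.3% to 54.3% in the MYCN lines. The share of ID3 was highest in T58A (31.4%, against 20.4% in SH-EP) and that of ID2 in S62A (23.3%, against 14.2%). ID4 was 1.81% to 2.53% of the sum with DMSO and dropped to 0.405% in SH-EP with CYC065, against 0.877% to 1.87% in the treated MYCN lines.

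Of the E proteins and other helix-loop-helix factors that ID proteins can engage or compete with, 6 of 13 were tested. As deposited, 2, 1, 1, and 2 of these 6 were higher and 3, 2, 3, and 2 lower in WT, T58A, S62A, and the double mutant. Of all tested genes, 30.9% to 31.6% were higher and 22.6% to 24.1% lower. TCF3 was higher in all 4 MYCN lines (log2 changes 0.33 to 0.77 as deposited). TCF4 (-0.61 to -0.32) and TCF12 (-0.72 to -0.31) were lower in all 4. All 6 fell with CYC065 in every line on the scaled values, as did 76.3% to 93.7% of all tested genes, most of all TWIST1 (-3.37 on average over the MYCN lines) and HAND2 (-2.66). Line differences of pathway genes are given as deposited, and on spike-in scaled values each moves down with the median of all genes, so that a higher value means higher relative to other genes. Likewise, a fall with CYC065 smaller than the median fall is a rise in the share of RNA.

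Of the BMP and SMAD pathway, 19 of 31 genes were tested, and 4, 4, 4, and 2 were higher and 4, 5, 4, and 7 lower in WT, T58A, S62A, and the double mutant, with medians from -0.15 to -0.000465 against 0.05 to 0.07 for all genes. Of all tested genes, 30.9% to 31.6% were higher and 22.6% to 24.1% lower in these lines. BMP5, a ligand, was at 0 to 0.0415 FPKM in SH-EP and at 3.68 to 5.22 for WT, 4.74 to 4.95 for T58A, 0.555 to 0.830 for S62A, and 2.02 to 2.97 in T58A S62A, without overlap. SMAD6, an inhibitory SMAD, was higher in all 4 lines by 0.46 to 1.00, and FSTL1, a secreted protein of the follistatin family, was lower by 0.76 to 1.59. With CYC065 (scaled values), 16, 18, 16, 16, and 16 of the 19 fell in SH-EP, WT, T58A, S62A, and the double mutant, against 76.3%, 93.7%, 84.5%, 90.2%, and 76.4% of all tested genes. The medians of the 19 were -1.44, -2.04, -1.75, -1.95, and -1.71. The largest falls were those of the ligand GDF6 (-4.73 on average over the MYCN lines) and of SMAD1 (-3.56), which carries the BMP signal to its target genes. SMAD7, the other inhibitory SMAD, rose in SH-EP (0.40), T58A (0.55), and T58A S62A (0.76) and was not past the threshold in WT (-0.14) or S62A (0.29).

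Of the Notch pathway, 21 of 29 genes were tested, and 12, 10, 12, and 9 were lower and 2, 5, 2, and 3 higher than in SH-EP on FPKM as deposited, in the order WT, T58A, S62A, and the double mutant. Of all tested genes, 22.6%, 23.3%, 23.4%, and 24.1% were lower and 31.6%, 30.9%, 31%, and 31.2% higher. The medians of the 21 lay between -0.30 and -0.21, against 0.05 to 0.07 for all genes. The γ-secretase subunits APH1B (-1.93 to -1.47) and NCSTN (-1.83 to -1.19), the coactivator MAML2 (-2.07 to -0.78), and the glycosyltransferase RFNG (-0.90 to -0.65) were lower in all 4 MYCN lines. With CYC065, 18 of the 21 fell in SH-EP, 21 in WT, T58A, and S62A, and 19 in T58A S62A, where 76.3%, 93.7%, 84.5%, 90.2%, and 76.4% of all tested genes fell. The medians of the 21 were -1.31, -2.004, -1.58, -1.81, and -1.47 in the order SH-EP, WT, T58A, S62A, and the double mutant. LFNG (-3.20 on average over the MYCN lines) and SPEN, a corepressor of RBPJ (-3.36), fell furthest, and ADAM17 (-0.56) and NCSTN (-0.74) fell least.

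Of 9 related repressors, BHLHE40, BHLHE41, and HES6 were tested. BHLHE40, a transcriptional repressor of the stress and clock response, was lower than in SH-EP in all 4 MYCN lines (-1.58 to -0.69 as deposited). With CYC065 it rose in all 5 lines on the scaled values, by 1.43 in SH-EP, 0.97 for WT, 1.96 for T58A, 1.64 for S62A, and 2.69 for the double mutant, so that, unlike HES1, it also rose in SH-EP. BHLHE41 and HES6 fell in every line. Of the corepressors, 8 of 10 were tested. SIRT1, a deacetylase that can bind HES1 and HEY2, was higher in all 4 lines (0.33 to 0.81) and fell furthest with CYC065 (-3.79 on average over the MYCN lines), before SIN3A (-3.68), whereas AES (-0.44) and HDAC1 (-0.56) fell least.

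Among cell cycle inhibitors that ID or HES proteins can repress, CDKN1A and CDKN1B were the tested 2 of 5. CDKN1A was lower than in SH-EP in WT (-0.67) and T58A (-0.37) and higher in S62A (0.34) and T58A S62A (0.28). With CYC065 it rose in T58A (0.91) and T58A S62A (0.65), and was not past the threshold in SH-EP (-0.02), WT (0.32), or S62A (0.29). CDKN1B fell in every line, by 3.10 in SH-EP and by 1.84 to 2.19 in the MYCN lines. Like ID4, it fell less in each MYCN line than in SH-EP (difference in log2 change 0.91 to 1.26).

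Over the 30 libraries, on log2(FPKM as deposited + 0.1), the genes most like HES1 were ZNF551 (Pearson r = 0.96), C2orf49 (0.954), and CCNT1 (0.953). Those most like ID4 were ZNF200 (0.956), ARF6 (0.953), and METTL18 (0.952). ID2 was most like GNL3L (0.946), SLBP (0.943), and SLC25A32 (0.933), ID3 most like SLC7A5 (0.892), BGN (0.878), and MRPL9 (0.865), ID1 most like PI4K2A (0.791), PXDC1 (0.791), and GOLGA8B (0.79), and HES4 most like PKP3 (0.871), LINC00883 (0.845), and DOHH (0.812). Among the members themselves, ID2 and ID4 were the most alike (0.817), HES1 and HES4 reached 0.497, and HES1 and ID4 -0.0689. These values describe libraries that share lines, treatment, and depth, and the named genes were picked as the most alike of all tested genes.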

How the data were processed

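The authors added ERCC spike-ins to total RNA by cell number, sequenced strand-specific poly(A) libraries, aligned them to hg19 with HISAT2, and computed FPKM with Cufflinks. The deposited FPKM (26228 genes, 92 spike-ins) are not scaled to the spike-ins and carry no read counts, so depth is known only in relative terms. Column numbers do not match the labels, so libraries were unnumbered replicates. The members and gene lists were chosen with earlier results of these data known.

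Lines were compared as deposited. CYC065 responses and interactions were compared after every library was brought to the same spike-in median, taken over the 55 spike-ins whose mean reached 1 FPKM (zeros included). Genes whose mean reached 1 FPKM (11575) entered limma 3.58.1 (R 4.3.3, eBayes with trend) on log2(FPKM + 0.1), a scale that understates changes of low genes, in 1 fit of 10 groups. Tests were two-sided, with a Benjamini-Hochberg adjusted p under 0.05 as the threshold. Besides the members, genes were named from each list that passed in all 4 MYCN lines (up to 4 per direction, by smallest change), with the 2 largest and 2 smallest falls (or rises) with CYC065, and the 3 most correlated with each tested member. No 2 libraries were identical, and within groups they correlated at 0.925 to 0.959. Promoters are from RefSeq (GRCh38.p14) and positions from GENCODE on GRCh37. The scripts were tested on simulated data. Alternatives were other pseudocounts, filters, scalings, and spike-in sets, fits of only the groups compared, and leaving out each library.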

Additional observations from a re-analysis of the deposited data

Results flagged for a closer look

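The response of HES1 and ID4 to CYC065 differed between each MYCN line and SH-EP by limma's interaction test on spike-in scaled FPKM. For HES1 the response was higher by 0.94 for WT (adjusted p = 0.037), 1.40 for T58A (adjusted p = 0.00367), 2.002 for S62A (adjusted p = 5.31e-05), and 2.24 for T58A S62A (adjusted p = 6.6e-06), in log2 units. For ID4 it was higher by 1.42 (adjusted p = 0.00615), 1.23 (adjusted p = 0.0134), 1.78 (adjusted p = 0.00024), and 1.68 (adjusted p = 0.000303) in the same order. HES1 fell in SH-EP and rose in S62A and T58A S62A, while ID4 fell in all 5 lines and most in SH-EP. The WT difference of HES1 was lost on leaving out any of 7 libraries, and the T58A difference of ID4 without 1. With only spike-ins of at least 50 FPKM, the differences of HES1 in WT and of ID4 in WT, T58A, and T58A S62A were lost. The rise of HES1 in S62A was lost with those spike-ins as well. The CYC065 libraries were shallower than the DMSO libraries, at a relative depth of 0.293 to 0.511 in SH-EP and 0.319 to 0.555 in the MYCN lines, and the part of depth in these differences was not tested.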

How the results depend on the processing

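Of the alternatives, the other scaling (spike-in for lines, as deposited for CYC065) changed the largest share of calls. Still, 50 of the 96 results of single members stayed the same. The 12 higher and 0 lower line calls became 1 and 17 with it. The 2 higher and 23 lower CYC065 calls became 5 and 12, and 5 lower interactions appeared in place of 0. Libraries centred on their median gave 8 higher and 12 lower CYC065 calls and 4 lower interactions. Spike-ins of at least 50 FPKM left 1 higher CYC065 call and 4 of 8 higher interactions. Fits of only the groups compared gave 1 lower line call (ID1 in S62A) and 3 lower calls of mutants against WT, of which 2 were among the 6 and 1 (ID4 in S62A) was not. They also lost HES1 in S62A against SH-EP, HES1 in WT with CYC065, and the interactions of HES1 in WT and ID4 in T58A. Gained by limma in these fits were 2 calls of HES4 in WT. It was higher than in SH-EP (0.844, adjusted p = 0.0244) and lower with CYC065 (-1.02, adjusted p = 0.0211). The 1 higher call of a mutant, HES4, was at 0 with a pseudocount of 0.01, without the filter, and with a filter at 5 FPKM, which removes HES4 from the test. That filter gave 1 lower interaction, with fewer genes tested. Leaving out each library gave 12 to 13 higher and 0 to 0 lower line calls, 1 to 2 higher and 22 to 23 lower CYC065 calls, 7 to 8 higher and 0 to 2 lower interactions, and 0 to 2 higher and 4 to 9 lower mutant calls.

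On spike-in scaled values the line change turned to -1.11 for ID1 in WT, to -0.50, -0.47, -1.17, and -0.35 for ID2 in WT, T58A, S62A, and T58A S62A, to -0.60, -0.0709, -1.91, and -0.27 for ID3 in the same order, to -0.84, -0.78, -1.60, and -0.40 for HES1, to -0.76, -1.78, and -0.80 for ID4 in WT, S62A, and T58A S62A, and to -1.43 for HES4 in S62A. Against WT, ID2 turned to 0.0294 for T58A, -0.67 for S62A, and 0.15 for the double mutant T58A S62A. With CYC065, as deposited, ID1 in S62A turned to 0.16, ID3 to 0.40 in SH-EP and 0.20 in S62A, and HES1 in WT to 1.23. Centred on the median, ID1 (0.30) and ID2 (0.0913) turned in S62A, ID3 turned to 0.54, 0.14, 0.0749, 0.34, and 0.10 (SH-EP first, then WT, T58A, S62A, and the double mutant), and HES1 in WT to 1.39. The scaling alone differs between these values.

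No paired analysis was possible because the column numbers do not match the replicate numbers in the labels. Read depth is unknown, CYC065 libraries are shallower, and HES4, HEY1, and HEY2 are the members whose values are most limited by it, with zeros in 1, 1, and 11 libraries. Each genotype is 1 line, and a possible sequencing pool and line cannot be told apart. Without an empty-vector line among the labels, differences from SH-EP in level or in response to CYC065 cannot be assigned to MYCN itself.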
